A study of Mus musculus with 18 samples.

Results

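The matrix proteases and their inhibitors are the genes that encode the matrix metalloproteinases (MMPs), the ADAMTS proteases and the tissue inhibitors of metalloproteinases (TIMPs). They were taken from the gene table by symbol alone, as every Mmp, Adamts or Timp symbol followed by a number, with the ADAMTS-like genes left out. The rule found 46 of the 35275 genes, of which 23 encode MMPs, 19 encode ADAMTS proteases and 4 encode TIMPs. RNA sequencing had been run on 18 libraries from 6 cell lines of murine malignant peripheral nerve sheath tumor (MPNST), a sarcoma of the nerve sheath. Each line was grown from a separate tumor that had been raised in a wild-type 129 Sv/Jae mouse by injecting the sciatic nerve with an adenovirus carrying Cas9 under the CMV promoter and guide RNAs. The guides were directed at Nf1 and p53 (Trp53 in the mouse) for the 3 lines of the Nf1/p53 dKO genotype, given as Nf1-/-;p53-/-, and at Nf1 and Cdkn2a, the locus of p16 and p19, for the 3 lines of the Nf1/Cdkn2a dKO genotype, given as Nf1-/-;Cdkn2a-/-. All lines therefore share the targeting of Nf1, no untargeted line was among the samples, and neither the virus nor the CMV promoter is restricted to a cell type. The primary lines had been passaged in serum-containing medium after digestion of the tumors with collagenase and dispase, and received no treatment. Each line was sequenced as 3 cultures. The groups are called the p53 dKO lines and the Cdkn2a dKO lines from here on.

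MMPs are zinc-dependent endopeptidases that cut the proteins of the extracellular matrix and many cell surface and soluble proteins, and most are made as inactive precursors. The secreted enzymes are commonly grouped by substrate into gelatinases, collagenases and stromelysins, while the membrane-type MMPs act at the cell surface. ADAMTS proteases are secreted enzymes with thrombospondin repeats, of which one group cuts the large aggregating proteoglycans of the matrix and another trims the amino-terminal propeptides of fibrillar procollagens. TIMPs bind the active site of MMPs, and Timp3 also inhibits several ADAMTS proteases. In sarcomas these genes are expressed by tumor cells as well as by the stroma around them.

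Total counts were 19560535 to 28312207 per library, and 65206479 to 73065228 per line once the 3 cultures of a line had been summed, so that the line was the replicate (n = 3 per genotype). Levels are given in CPM, the counts of a gene relative to the scaled total of its line, and always in the order of lines 1, 2 and 3. Trp53 was at 94.1, 67.5 and 58.7 CPM in the p53 dKO lines and at 247, 246 and 185 CPM in the Cdkn2a dKO lines. Cdkn2a transcripts were present in every line, at 363, 279 and 42.9 CPM and at 169, 392 and 285 CPM in the same order of genotypes, and Nf1 was at 12.7 to 70.0 CPM over the 6 lines. A gene cut by Cas9 can still be transcribed, so the levels of these genes do not by themselves check an edit. All 10 mesenchymal markers were detected above 1 CPM, with a summed level of 10583 to 24782 CPM in the p53 dKO lines against 12545 to 19991 CPM in the Cdkn2a dKO lines.

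Markers of other cells were also read, since leukocytes and neutrophils make MMPs of their own. The 12 leukocyte and macrophage markers summed to 14.8 to 26.8 CPM in the p53 dKO lines against 33.1 to 47.3 CPM in the Cdkn2a dKO lines, and the 8 neutrophil markers to 0.683 to 0.806 CPM and 3.26 to 10.3 CPM. Both sums were therefore higher in every Cdkn2a dKO line. The defining leukocyte gene Ptprc reached no more than 0.563 CPM in any line, Adgre1 no more than 0.0283 CPM and Itgam no more than 0.115 CPM, and 8 of the 12 and 7 of the 8 markers stayed below 1 CPM in every line. Besides Laptm5, those of the 12 above 1 CPM in some line were Cd14 (7.86 to 27.9 CPM over the 6 lines), Cd68 (1.96 to 7.14 CPM) and Csf1r (0.721 to 3.17 CPM). Cd14, Cd68 and Csf1r overlapped between the genotypes. The lysosomal gene Laptm5 (up to 18.6 CPM against up to 0.503 CPM) and the calcium-binding S100a8 (up to 9.85 CPM against up to 0.284 CPM) carried most of the difference in the sums. Of the 7 leukocyte and macrophage markers tested with edgeR on the 6 lines, Laptm5 alone passed (log2 fold change 5.76, SE 0.74, adjusted p = 0.0301). The 8 skeletal muscle progenitor markers summed to 54.1 to 417 CPM in the p53 dKO lines against 0.297 to 0.85 CPM in the Cdkn2a dKO lines. Of the 5 tested, edgeR called 2, beside 1.80% of all genes, both lower in the Cdkn2a dKO lines. Myf5 was at 28, 24.2 and 27.7 CPM against 0, 0 and 0.0156 CPM (log2 fold change -11.91, SE 0.61, adjusted p = 0.00672). Cdh15 was at 34.2, 27.9 and 97.6 CPM against 0.273, 0.332 and 0.125 CPM (-7.76, SE 0.73, adjusted p = 0.0191). The sums of the 10 Schwann cell markers (8.63 to 83.5 CPM against 6.13 to 62.7 CPM) and of the 6 epithelial markers (2.67 to 739 CPM against 8.26 to 611 CPM) overlapped between genotypes. Gap43 alone was at 53.3, 4.72 and 4.93 CPM against 4.65, 39 and 59.6 CPM. Of the 8 Schwann markers tested, Gap43 had the 1 positive log2 fold change and 7 had negative values (median -3.26). EdgeR called 0 of them, beside 1.80% of all genes, and Cdh19 had no count in any Cdkn2a dKO line. The part of any of these markers in the values that follow was not tested.

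The first question was which of the 46 genes differed between the genotypes. Mmp10, which encodes stromelysin 2, was the only one that passed the quasi-likelihood test of edgeR on the 6 lines, and it was higher in the Cdkn2a dKO lines. Its neighbor Mmp3 (stromelysin 1) and the collagenase genes Mmp13, Mmp1a and Mmp1b were also higher in all 3 Cdkn2a dKO lines, without passing that test. The same held for the membrane-type genes Mmp14 and Mmp24, and for Adamts1, Adamts7 and Timp2. Adamts3, Adamts17 and Adamts20 were lower in all 3 Cdkn2a dKO lines, also without passing the edgeR test. DESeq2 on the same 6 lines called each of these genes except Mmp1a, Mmp1b and Adamts20. In bulk libraries, a higher share of cells that express a gene and more RNA of it per cell cannot be told apart.

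Of the 46 genes, 34 had enough counts for the test, and 12 did not, among them Mmp27 and Adamts19 with no count in any library, which allows up to 3 counts. Over all 15207 genes tested, the quasi-likelihood test of edgeR, adjusted after Benjamini and Hochberg, called 274, or 1.80%, at an adjusted p under 0.05, and 97, or 0.638%, were called higher in the Cdkn2a dKO lines. Of the 34 matrix protease and inhibitor genes it called 1, higher in the Cdkn2a dKO lines. At an unadjusted p under 0.05 stood 16 of the 34, with 10 higher and 6 lower in the Cdkn2a dKO lines, beside 22.4% of all genes tested. The 3 lines of one genotype lay entirely above those of the other for 13 of the 34, beside 31.4% of all genes, and for 12 of the 34 with an absolute log2 fold change of at least 1 in addition, beside 12.3% of all genes. The median log2 fold change of the 34 was 0.17 (positive where higher in Cdkn2a dKO), and that of all genes tested was -0.02. By group, the 17 MMPs tested had a median of 0.97 with 12 positive values, and the 14 ADAMTS genes tested had a median of -0.53 with 4 positive values. Some genes with few counts were tested only through the genotype in which they were higher. Among them were Mmp1a, Mmp1b, Mmp12 and Mmp24 (Cdkn2a dKO) and Adamts17 (p53 dKO), and such genes add to these counts and medians.

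**Figure D1:**
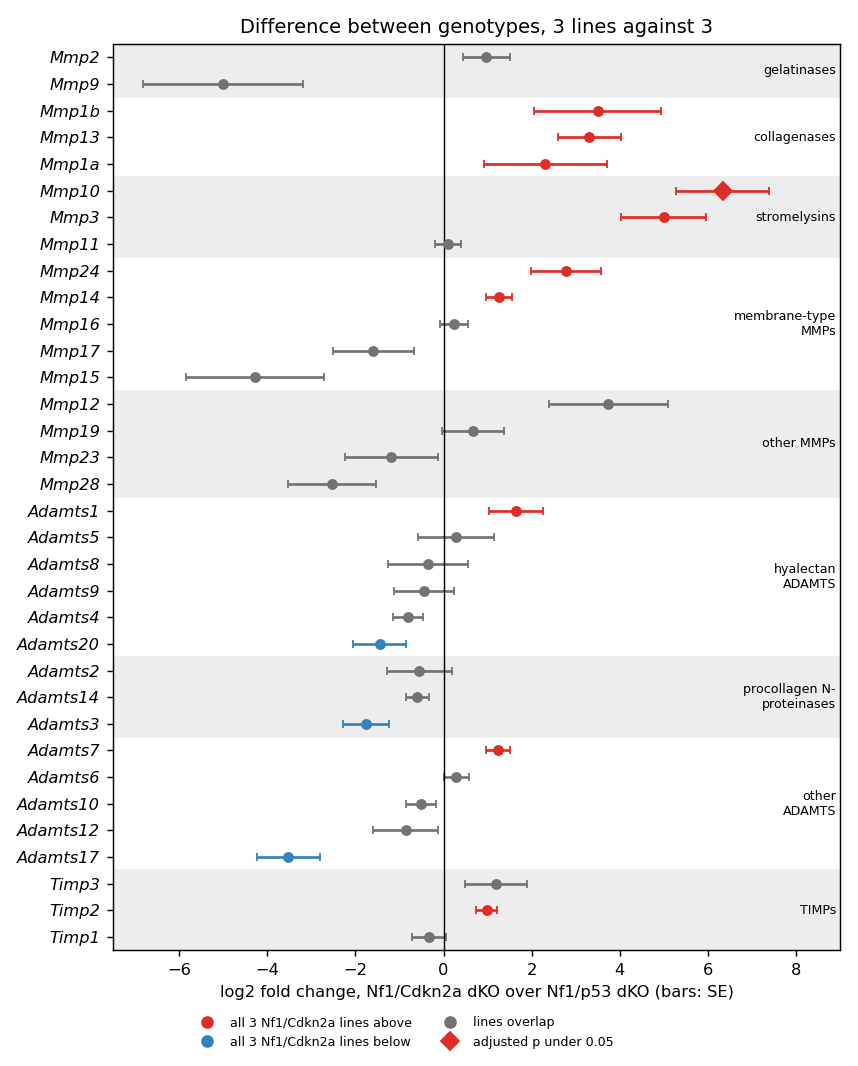
Log2 fold change of the 34 tested genes (x axis, Cdkn2a dKO over p53 dKO, bars are standard errors, n = 3 lines per genotype), grouped by class on the y axis. Red and blue points have all 3 Cdkn2a dKO lines above or below all 3 p53 dKO lines, and the diamond at 6.33 is Mmp10, the 1 gene with an adjusted p under 0.05.

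The number of genes that passed depended both on what was taken as the replicate and on the test used. With the 18 cultures entered as separate samples, DESeq2, the tool named in the methods of the study, called 20 of the 31 genes it tested, 11 higher and 9 lower in the Cdkn2a dKO lines, while it called 48.9% of all 13110 genes. Those p-values treat the cultures of 1 line as independent. On the 6 summed lines DESeq2 called 12 of the 31 for which it gave an adjusted p, 9 higher and 3 lower, beside 14.4% of all genes. They were Mmp3, Mmp10, Mmp12, Mmp13, Mmp14, Mmp24, Adamts1, Adamts7 and Timp2 on the higher side and Adamts3, Adamts17 and Mmp28 on the lower side. With limma-voom on the cultures and the line as a random effect, 8 of 31 were called, all higher, beside 16.6% of all genes. For the median gene of the 34, differences between lines accounted for 94.8% of the variance of log2 levels within the p53 dKO genotype and 89.7% within the Cdkn2a dKO genotype, where the medians over all genes tested were 83.9% and 55.3%.

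**Figure D2:**
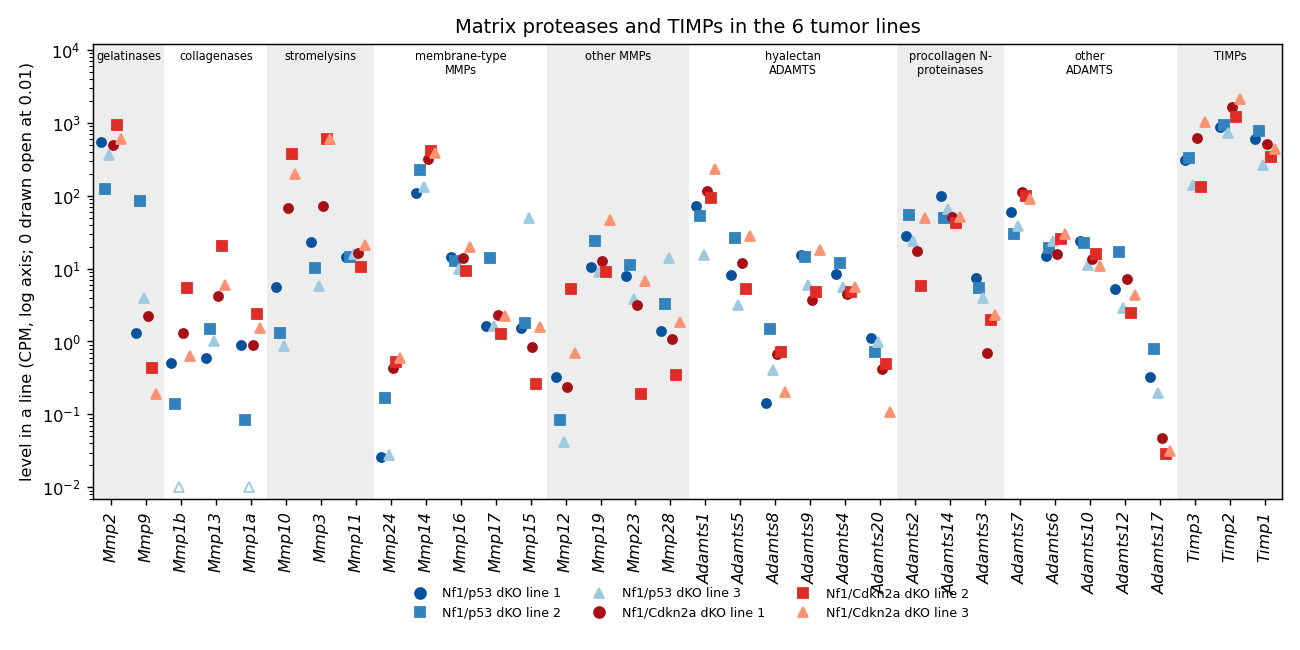
Level of each tested gene in the 6 lines (y axis, CPM on a log axis, a level of 0 drawn open at 0.01), with the genes grouped by class on the x axis and 1 symbol per line. Levels range from 0 CPM for Mmp1a and Mmp1b in p53 dKO line 3 to 2111 CPM for Timp2 in Cdkn2a dKO line 3, and Mmp9, Mmp15 and Mmp17 each have 1 p53 dKO line far above the other 5.

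Of the 34 genes, the stromelysin gene Mmp10 had the widest difference. It lies at chr9:7502352-7510240 (GRCm38) and encodes an enzyme that cuts proteoglycans, laminin and fibronectin and activates other MMP precursors. Mmp10 was at 5.67, 1.29 and 0.858 CPM in the p53 dKO lines and at 66.6, 369 and 195 CPM in the Cdkn2a dKO lines. The lowest Cdkn2a dKO line was thus above the highest p53 dKO line, and the lines of each genotype spread over 6.61-fold and 5.55-fold. The log2 fold change was 6.33 (SE 1.05, adjusted p = 0.0465 by edgeR), an 80.5-fold higher level. Without p53 dKO line 1 the adjusted p was 0.0466 and the log2 fold change 7.61, and without any 1 of the other 5 lines the adjusted p was 0.0776 to 0.125 and the log2 fold change 5.65 to 6.76.

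Mmp3 (chr9:7445822-7455975) encodes the closely related stromelysin 1. Its levels were 23.4, 10.3 and 5.71 CPM in the p53 dKO lines against 71.5, 591 and 593 CPM in the Cdkn2a dKO lines. Again the genotypes did not overlap, and line 1 was the lowest Cdkn2a dKO line for both genes. The log2 fold change of Mmp3 was 4.99 (SE 0.97, adjusted p = 0.0554), 4.64 to 5.71 with 1 line left out. Of the 50-base words in the exons of Mmp10, 8.37% also occur in Mmp3, and 7.99% of those of Mmp3 occur in Mmp10, so a small share of their reads could be assigned to either gene.

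Mmp11 is counted among the stromelysins by name, but it lies on chromosome 10 outside the MMP cluster of chromosome 9 and its product is activated inside the cell by furin. It was at 14.6 to 15.7 CPM in the p53 dKO lines and at 10.4 to 21.3 CPM in the Cdkn2a dKO lines. The log2 fold change was 0.10 (SE 0.29, adjusted p = 0.854), and it turned to -0.03 when libraries were scaled by raw total counts. Summed per kilobase of exon, the 3 stromelysins reached 21.5, 11.7 and 9.33 CPM per kb in the p53 dKO lines against 84.3, 546 and 450 CPM per kb in the Cdkn2a dKO lines, with an exact two-sided permutation p of 0.1, the smallest that 3 lines against 3 can give.

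Collagenases cut the triple helix of fibrillar collagens. Mmp13 (collagenase 3, chr9:7272514-7283331) was at 0.593, 1.46 and 1.02 CPM in the p53 dKO lines and at 4.25, 20.3 and 5.97 CPM in the Cdkn2a dKO lines, with a log2 fold change of 3.31 (SE 0.72, adjusted p = 0.0689). The mouse has a pair of interstitial collagenase genes in place of the single human one. Mmp1a was at 0.889, 0.0849 and 0 CPM in the p53 dKO lines against 0.898, 2.41 and 1.55 CPM in the Cdkn2a dKO lines, so that line 1 of either genotype was all but level (log2 fold change 2.31, SE 1.39, adjusted p = 0.375). Mmp1b was at 0.503, 0.141 and 0 CPM and at 1.3, 5.42 and 0.626 CPM in the same order (3.50, SE 1.44, adjusted p = 0.218). For all of these genes the Cdkn2a dKO lines lay above the p53 dKO lines, and Cdkn2a dKO line 2 was the highest line. Mmp1a and Mmp1b share 8.15% and 11.8% of their 50-base words, and 10.8% of the exon bases of Mmp1b lie over exons of Mmp12 on the other strand, so the split of reads among them is uncertain. Mmp8, the neutrophil collagenase, had too few counts for the test, with 1 count in all p53 dKO lines against 6, 10 and 49 counts in the Cdkn2a dKO lines. The 8 neutrophil markers summed to 0.683 to 0.806 CPM in the p53 dKO lines against 3.26 to 10.3 CPM in the Cdkn2a dKO lines. In the latter, S100a8 alone was at 2.94, 9.85 and 6.3 CPM, and 7 of the 8 markers stayed below 1 CPM in every line. The part of neutrophils in the Mmp8 counts was not tested.

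The genes Mmp13, Mmp12, Mmp1b, Mmp3, Mmp1a, Mmp10, Mmp8, Mmp27, Mmp20 and Mmp7 lie side by side, in this order, over 427 kb of chromosome 9 (chr9:7272514-7699585). Every tested gene of this cluster had a positive log2 fold change. The 6 tested genes had a median of 3.62, and 5 of the 6 had all Cdkn2a dKO lines above all p53 dKO lines, beside 14.8% of all genes tested. The exception was Mmp12 (macrophage elastase), at 0.322, 0.0849 and 0.0415 CPM against 0.241, 5.16 and 0.688 CPM. In p53 dKO lines 2 and 3, Mmp12 had 6 and 3 counts, Mmp1a 6 and 0 and Mmp1b 10 and 0. These genes had enough counts for the test only through the Cdkn2a dKO lines, so the filter itself favored a positive value for them. Mmp13, Mmp3 and Mmp10 had 46 counts or more in every line. The 11 tested MMPs outside the cluster had a median of 0.10, with 6 positive values. Mmp7, Mmp20 and Mmp27 had at most 2 counts in any line.

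The genes beside the cluster were read in the same way, to see how far along the chromosome the difference reached. Of the nearest tested genes to the left, Dcun1d5 (64.3 kb away) had a log2 fold change of 0.15 and Dync2h1 (88.1 kb) of -0.41. To the right, Tmem123 (64.5 kb) was at -0.27, Birc2 at -0.05, Birc3 at 0.06 and Yap1 (232 kb) at 0.44, and the lowly expressed Gm10709 (52.1 kb) was at -0.93. Of these, Gm10709 was lower and Yap1 higher in every Cdkn2a dKO line. The next tested genes to the left lie much farther away and had negative values, Pdgfd (894 kb) at -2.09, Casp12 (1899 kb) at -1.42 and Casp4 (1936 kb) at -1.89, the latter pair lower in every Cdkn2a dKO line. The adjusted p by edgeR of these 10 neighbors, the 5 nearest on each side, was 0.103 to 0.904.

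**Figure D3:**
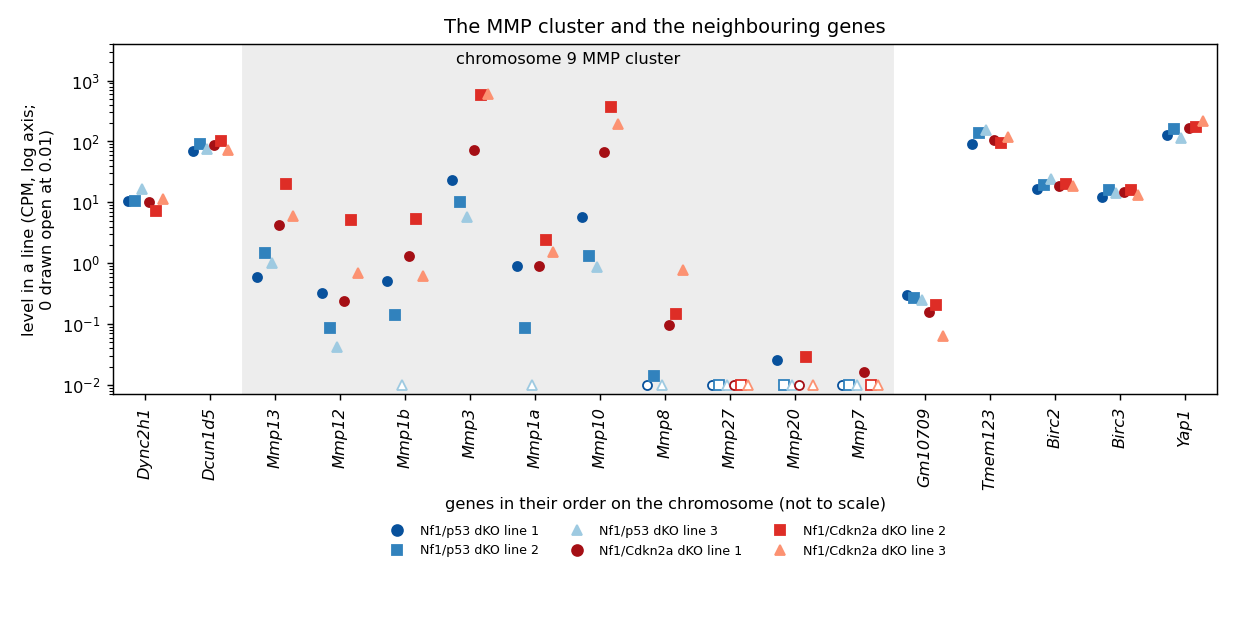
Level in each of the 6 lines (y axis, CPM on a log axis, a level of 0 drawn open at 0.01) for the 10 genes of the chromosome 9 MMP cluster, shaded, and the tested genes up to 232 kb on either side, in chromosomal order on the x axis. Mmp3 and Mmp10 reach 593 and 369 CPM in Cdkn2a dKO lines, while Birc2 and Birc3 stay between 12.1 and 23.8 CPM in all 6 lines.

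The promoters of the cluster genes are shown because these genes stood together in the data, and because the AP-1 site, bound by Fos and Jun proteins, is a long known element of collagenase and stromelysin promoters. The 250 bases before the RefSeq start site (GRCm38.p6) of 3 cluster genes are printed 5′ to 3′ on the coding strand, with the letters TGAGTCA or TGACTCA in capitals. All lie on the plus strand of chromosome 9, at chr9:7445572-7445821 for Mmp3, chr9:7502092-7502341 for Mmp10 and chr9:7272264-7272513 for Mmp13.
Mmp3: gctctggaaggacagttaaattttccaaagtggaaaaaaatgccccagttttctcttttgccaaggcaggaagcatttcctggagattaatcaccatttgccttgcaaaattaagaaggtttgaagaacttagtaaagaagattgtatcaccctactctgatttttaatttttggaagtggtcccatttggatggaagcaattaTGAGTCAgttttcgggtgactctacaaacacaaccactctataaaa
Mmp10: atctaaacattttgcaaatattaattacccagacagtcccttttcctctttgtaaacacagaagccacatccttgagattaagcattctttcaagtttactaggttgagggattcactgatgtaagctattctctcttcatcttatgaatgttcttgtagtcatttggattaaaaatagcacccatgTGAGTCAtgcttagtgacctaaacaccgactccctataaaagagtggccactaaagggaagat
Mmp13: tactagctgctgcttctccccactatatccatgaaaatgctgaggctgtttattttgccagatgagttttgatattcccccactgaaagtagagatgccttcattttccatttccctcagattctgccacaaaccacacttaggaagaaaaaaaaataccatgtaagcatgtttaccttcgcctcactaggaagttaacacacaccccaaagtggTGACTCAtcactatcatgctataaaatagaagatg

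The AP-1 letters start 46 bases before the start site in Mmp3, 63 bases before it in Mmp10 and 35 bases before it in Mmp13. Promoter sequences were found for 32 of the 46 genes, among them all 10 of the cluster. TGAGTCA or TGACTCA, which are each other's reverse complement, occurred in the 250 bases of 7 of the 10 cluster genes (in Mmp12 only before an alternative start site), in 0 of the other 22, and in 5.16% of all 27025 genes with such a window. The letters AGGAAG, the core of an ETS factor site, were found on either strand for 6 of the 10, 7 of the 22 and 32.3% of all genes. TATAAA on the coding strand was found for 7 of the 10, 2 of the 22 and 8.94% of all genes. AP-1 and ETS letters occurred together for 4 of the 10, 0 of the 22 and 1.59% of all genes. The cluster genes without AP-1 letters were Mmp8, Mmp27 and Mmp20. Of these, Mmp27 and Mmp20 had at most 2 counts in any line, as did Mmp7, which has the letters. Mmp8 had 1 count in all p53 dKO lines against 6, 10 and 49 counts in the Cdkn2a dKO lines. Whether the letters bear on the levels was not tested.

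Gelatinases cut denatured collagen and the type IV collagen of basement membranes. Averaged over the 6 lines Mmp2 was the most abundant MMP per kilobase (mean 152 CPM per kb), although Mmp3 was above it in Cdkn2a dKO lines 2 and 3 (328 and 330 against 279 and 176 CPM per kb), and Mmp14 was level with it in p53 dKO line 2 (37.3 against 37.0 CPM per kb). Mmp2 was at 550, 125 and 365 CPM in the p53 dKO lines against 500, 941 and 593 CPM in the Cdkn2a dKO lines. The genotypes overlapped, and the log2 fold change was 0.97 (SE 0.53, adjusted p = 0.329). Mmp9 was at 1.29, 84.8 and 3.92 CPM and at 2.2, 0.433 and 0.188 CPM in the same order. Its log2 fold change of -5.00 (SE 1.82, adjusted p = 0.177) rested on p53 dKO line 2, in which the 3 cultures were at 82.9 to 87.5 CPM, and without that line it was -1.45 (adjusted p = 0.491). The same line had the lowest Mmp2 level of the 6. It also had 64.3 CPM of the neural crest receptor gene Ngfr, where the other 2 p53 dKO lines had 1.06 and 0.526 CPM, and the part of such cells in the Mmp9 level was not tested.

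Membrane-type MMPs sit at the cell surface, where Mmp14 cuts fibrillar collagen and activates the Mmp2 precursor in a complex with Timp2. Mmp14 (chr14:54431612-54445364) was at 109, 222 and 131 CPM in the p53 dKO lines and at 316, 411 and 381 CPM in the Cdkn2a dKO lines. These values did not overlap, and the log2 fold change was 1.26 (SE 0.29, adjusted p = 0.077), 1.06 to 1.63 with 1 line left out. The group had 6 genes, of which 5 were tested and 0 passed with edgeR, beside 1.80% of all genes. An unadjusted p under 0.05 was reached by 3, beside 22.4% of all genes, and DESeq2 on the 6 lines called 2, beside 14.4%. Mmp24 was at 0.0258, 0.17 and 0.0277 CPM against 0.433, 0.519 and 0.594 CPM, or 16 counts in all against 101, a 7.12-fold higher level (95% interval 4.18 to 12.9, counting error only). Its fit gave a log2 fold change of 2.77 (SE 0.79, adjusted p = 0.11), and 13.6% of its exon bases lie over a gene on the other strand.

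The other membrane-type genes went different ways. Mmp16 was at 9.91 to 14.3 CPM against 9.35 to 19.8 CPM (log2 fold change 0.23, SE 0.32, adjusted p = 0.707). Mmp15 was at 48.8 CPM in p53 dKO line 3 and at 0.26 to 1.77 CPM in the other 5 lines, so that its log2 fold change of -4.28 (adjusted p = 0.18) was -0.88 without that line (adjusted p = 0.535). Mmp17 was at 14.1 CPM in p53 dKO line 2 and at 1.25 to 2.28 CPM elsewhere, and its log2 fold change of -1.59 (adjusted p = 0.354) was 0.25 without that line. Mmp25, better known from leukocytes, had 14 counts in the p53 dKO lines against 2 in the Cdkn2a dKO lines and was not tested. Summed per kilobase, the group was at 20.5, 41.3 and 32.5 CPM per kb against 55.2, 70.4 and 67.0 CPM per kb (exact permutation p = 0.1, the smallest possible).

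Among the other MMPs, 4 of the 8 were tested and 0 passed with edgeR, beside 1.80% of all genes. An unadjusted p under 0.05 was reached by 2, beside 22.4% of all genes, and DESeq2 on the 6 lines called 2, beside 14.4%. Mmp19, the most abundant per kilobase on average and in 4 of the 6 lines, was at 10.5, 23.6 and 8.95 CPM in the p53 dKO lines against 12.8, 9 and 46.9 CPM in the Cdkn2a dKO lines (log2 fold change 0.67, SE 0.70, adjusted p = 0.602), which turned to -0.39 without Cdkn2a dKO line 3. It shares 22.3% of its exon bases with a gene on the other strand. Mmp28 (epilysin) was at 14.1 CPM in p53 dKO line 3, the line with the high Mmp15 level, and at 0.346 to 3.31 CPM in the others (-2.53, SE 1.00, adjusted p = 0.202, and -1.11 without that line). That line also had the highest sum of muscle progenitor markers, 417 CPM, whose part in these values was not tested. Mmp23, a membrane-anchored enzyme that lacks the hemopexin domain, was at 3.78 to 11.3 CPM against 0.188 to 6.79 CPM, with a log2 fold change of -1.18 (SE 1.06, adjusted p = 0.547). Mmp21 had 20 counts in all p53 dKO lines against 4 in all Cdkn2a dKO lines.

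The ADAMTS genes showed no common direction, and 0 of the 14 tested passed with edgeR, beside 1.80% of all genes. An unadjusted p under 0.05 was reached by 5, beside 22.4% of all genes, and DESeq2 on the 6 lines called 4, beside 14.4%. In the group that cuts aggrecan, versican and related proteoglycans, Adamts1 was the most abundant per kilobase. It was at 72, 52.8 and 15.2 CPM in the p53 dKO lines against 114, 91.4 and 233 CPM in the Cdkn2a dKO lines, which did not overlap (log2 fold change 1.65, SE 0.61, adjusted p = 0.183). Adamts20 was at 1.1, 0.721 and 0.969 CPM against 0.417, 0.49 and 0.109 CPM (-1.45, SE 0.60, adjusted p = 0.219), the reverse order. The aggrecanase genes Adamts4 and Adamts5 overlapped between genotypes, Adamts4 at 5.51 to 12.1 CPM against 4.46 to 5.65 CPM (-0.81, SE 0.34, adjusted p = 0.231) and Adamts5 at 3.15 to 25.9 CPM against 5.32 to 28.1 CPM (0.28, SE 0.86, adjusted p = 0.871). Adamts8 and Adamts9 overlapped as well, with log2 fold changes of -0.35 and -0.44, and Adamts15 had 26 counts against 17 and was not tested.

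All 3 procollagen N-proteinase genes had negative log2 fold changes. Adamts14 was at 99.4, 49.3 and 65.9 CPM in the p53 dKO lines against 50.5, 41.6 and 51 CPM in the Cdkn2a dKO lines (-0.59, SE 0.27, adjusted p = 0.257), an overlap by 1 line. Adamts3 was at 7.44, 5.37 and 3.96 CPM against 0.69, 1.98 and 2.31 CPM (-1.75, SE 0.52, adjusted p = 0.122), with no overlap. Adamts2 was at 23.8 to 53.8 CPM against 5.8 to 49.4 CPM (-0.55, SE 0.74, adjusted p = 0.695). Their summed level was 23.5, 16.2 and 16.0 CPM per kb against 11.7, 8.99 and 15.5 CPM per kb (exact permutation p = 0.1, the smallest possible).

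Of the other ADAMTS genes, Adamts7 and Adamts17 did not overlap between genotypes. Adamts7, whose product cuts cartilage oligomeric matrix protein, was at 59.8, 29.6 and 37.9 CPM in the p53 dKO lines against 111, 97.3 and 91.1 CPM in the Cdkn2a dKO lines, with a log2 fold change of 1.23 (SE 0.27, adjusted p = 0.0696), and the adjusted p was 0.0457 without p53 dKO line 1. Adamts17 was at 0.322, 0.778 and 0.194 CPM against 0.0481, 0.0288 and 0.0313 CPM, or 94 counts against 7, an 11.9-fold higher level in the p53 dKO lines (95% interval 5.56 to 30.4, counting error only). Its fitted log2 fold change was -3.52 (SE 0.72, adjusted p = 0.0616). Adamts6, Adamts10 and Adamts12 overlapped, with log2 fold changes of 0.29, -0.51 and -0.86 (adjusted p = 0.595, 0.402 and 0.524). The other 4 genes of the group, Adamts13, Adamts16, Adamts18 and Adamts19, had at most 14 counts in any line.

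Of the 3 inhibitor genes tested 0 passed with edgeR, beside 1.80% of all genes. An unadjusted p under 0.05 was reached by 1, beside 22.4% of all genes, and DESeq2 on the 6 lines called 1, beside 14.4%. Timp1 and Timp2 were on average the most abundant genes of the set per kilobase (means 548 and 321 CPM per kb over the 6 lines), with Mmp3 between them in Cdkn2a dKO line 2. Timp2 (chr11:118301069-118355740), whose product both inhibits MMPs and serves in the activation of the Mmp2 precursor, was at 874, 934 and 719 CPM in the p53 dKO lines against 1657, 1214 and 2111 CPM in the Cdkn2a dKO lines. These did not overlap, with a log2 fold change of 0.98 (SE 0.24, adjusted p = 0.0844). Timp1 was at 591, 772 and 264 CPM against 517, 337 and 440 CPM (-0.33, SE 0.39, adjusted p = 0.65), which turned to 0.02 without p53 dKO line 2. Timp3, which binds to the matrix, was at 304, 323 and 138 CPM against 610, 133 and 1006 CPM (1.19, SE 0.70, adjusted p = 0.359), a 7.55-fold spread within the Cdkn2a dKO genotype alone, and 21.3% of its exon bases lie over Syn3 on the other strand. Timp4 had at most 4 counts in any line.

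**Figure D4:**
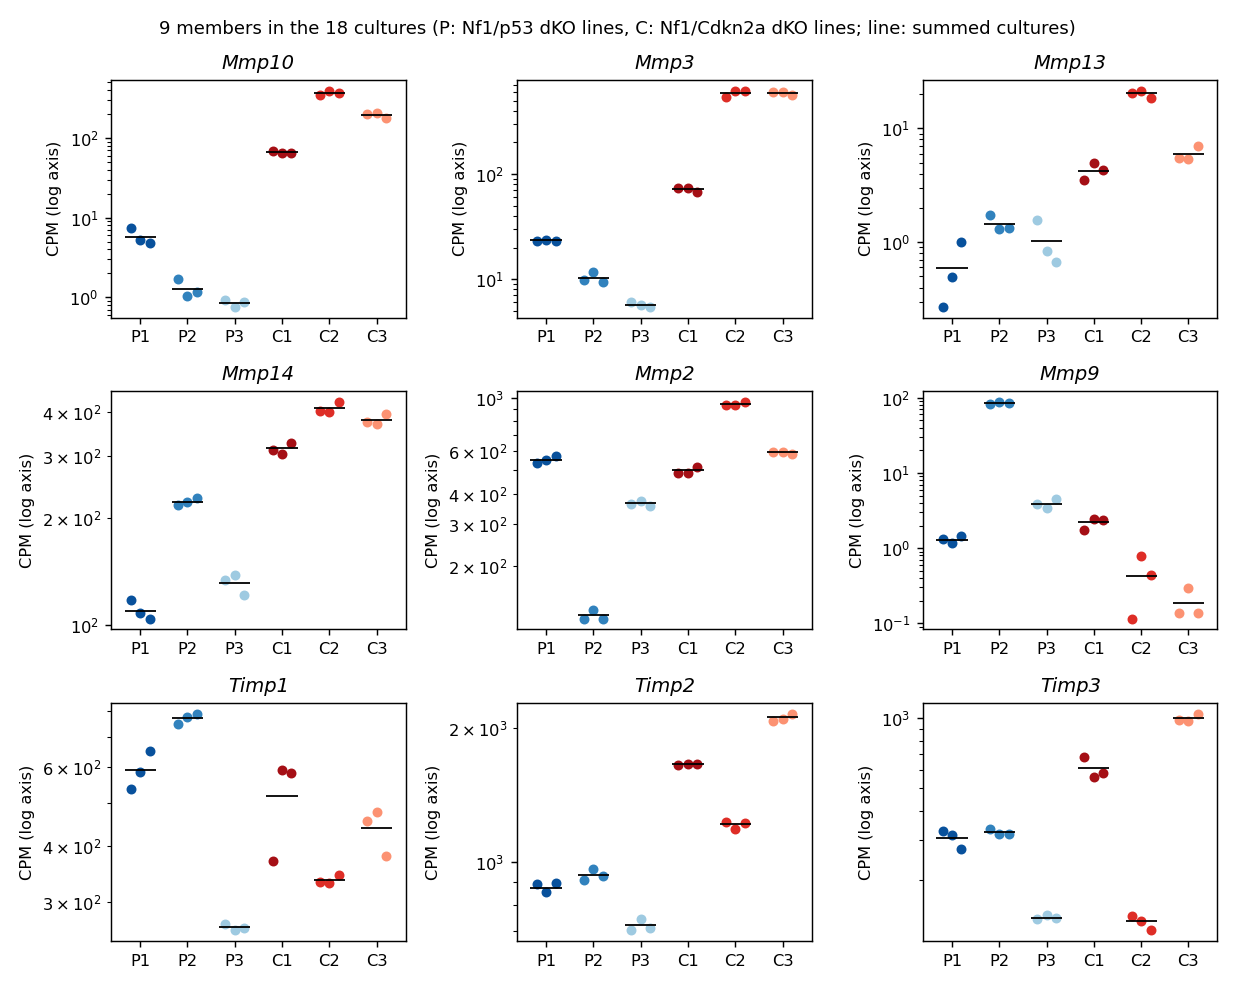
Level of 9 genes in each of the 18 cultures (points, y axis, CPM on a log axis) and in the summed line (black bar), with p53 dKO lines as P1 to P3 and Cdkn2a dKO lines as C1 to C3 on the x axis. Cultures of a line lie close together for Mmp2 and Timp2, at most 1.09-fold and 1.06-fold apart, while lines of 1 genotype differ up to 4.41-fold and 1.74-fold.

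Levels per kilobase of exon were then used to compare the genes with each other within a line. In the p53 dKO lines Mmp2 and Mmp14 together made up 85.0, 58.5 and 81.7% of the summed MMP level, and Mmp3 and Mmp10 made up 7.63, 5.11 and 2.31%. In the Cdkn2a dKO lines Mmp2 and Mmp14 made up 67.8, 38.2 and 33.6%, and Mmp3 and Mmp10 made up 26.4, 59.5 and 62.0%. Mmp3 and Mmp10 were thus the larger part of the MMP transcripts in 2 of the 3 Cdkn2a dKO lines and in none of the p53 dKO lines. In p53 dKO line 2 the MMPs other than these 4 made up 36.4%, of which most was Mmp9 (24.0 of 127 CPM per kb for all MMPs).

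The summed MMP level was 213, 127 and 159 CPM per kb in the p53 dKO lines against 297, 912 and 714 CPM per kb in the Cdkn2a dKO lines (exact permutation p = 0.1, the smallest possible). Outside the chromosome 9 cluster it was 196, 120 and 155 CPM per kb against 215, 356 and 267 CPM per kb. The summed TIMP level was 927, 1149 and 498 CPM per kb against 1082, 707 and 1160 CPM per kb, which overlapped (exact permutation p = 0.6). The ratio of the 2 sums was 0.230, 0.111 and 0.320 in the p53 dKO lines against 0.274, 1.29 and 0.615 in the Cdkn2a dKO lines (exact permutation p = 0.2), so that MMP transcripts exceeded TIMP transcripts in 1 line of the 6, Cdkn2a dKO line 2. Within the TIMPs, Timp1 made up 59.6 to 75.7% of the level in the p53 dKO lines against 42.7 to 53.8% in the Cdkn2a dKO lines, and Timp2 made up 20.9 to 37.0% and 39.3 to 46.7%. A transcript level is not an enzyme activity, and precursor activation was not measured.

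**Figure D5:**
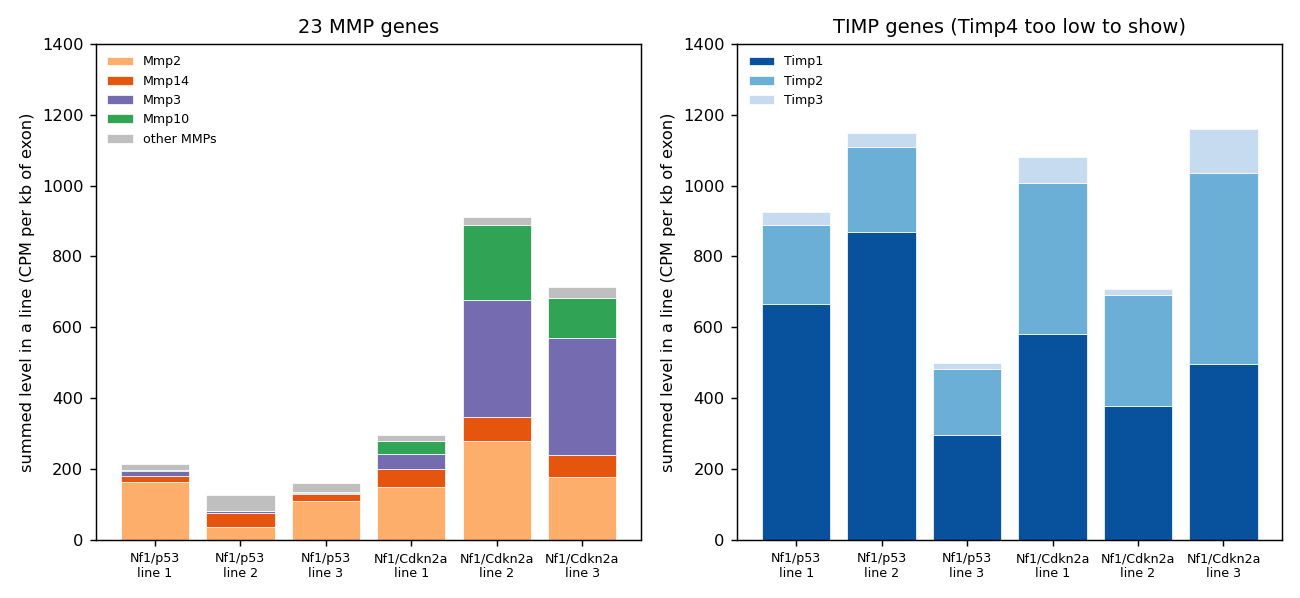
Summed level of the 23 MMP genes (left) and of the TIMP genes (right) in each of the 6 lines (y axis, CPM per kb of exon, from 0), with bars divided by gene. The MMP bars of Cdkn2a dKO lines 2 and 3 reach 912 and 714 CPM per kb, most of it Mmp3 and Mmp10, while the TIMP bars of the genotypes overlap.

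The other genes of proteolysis at the cell surface were read from lists, to place the MMPs and TIMPs among the enzymes that activate, dock or inhibit them. Of 69 such genes 57 were tested, and 2 passed with edgeR, beside 1.80% of all genes, while DESeq2 on the 6 lines called 16, beside 14.4%. Adam8, a membrane-anchored sheddase, fell from 24.0, 29.1 and 42.0 CPM in the p53 dKO lines to 2.2, 1.66 and 0.923 CPM in the Cdkn2a dKO lines (log2 fold change -4.31, SE 0.42, adjusted p = 0.0198). Ctsb, the lysosomal cysteine protease cathepsin B, rose from 463, 561 and 460 CPM to 872, 960 and 1023 CPM (0.94, SE 0.15, adjusted p = 0.0465). Without 1 line, the adjusted p of Adam8 was 0.0588 (p53 dKO line 2), 0.0929 (Cdkn2a dKO line 1) and 0.102 (Cdkn2a dKO line 2) and at most 0.0499 without any 1 of the other 3, and that of Ctsb was 0.0747 to 0.138 whichever line was left out. By unadjusted p, 14 of the 57 stood under 0.05 on the higher side and 5 on the lower side, beside 9.81% and 12.5% of all genes, and the median log2 fold change was 0.18.

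Among the genes of plasminogen activation, the route by which plasmin activates MMP precursors, 0 of 12 passed with edgeR (2 with an unadjusted p under 0.05, 1 called by DESeq2 on the 6 lines). Over all genes these shares were 1.80%, 22.4% and 14.4%, and they stand beside the counts of the lists that follow as well. Plau, encoding urokinase, was at 428, 125 and 53.2 CPM against 262, 638 and 814 CPM (log2 fold change 1.50, SE 0.79, adjusted p = 0.312), and plasminogen itself (Plg) had no count in any line. Among the 13 tested activators, docking proteins and membrane inhibitors of MMPs, 0 passed with edgeR. An unadjusted p under 0.05 was reached by 6, of which 5 were higher and 1 lower in the Cdkn2a dKO lines. DESeq2 called 5, of which 4 were higher and 1 lower. The widest difference was on the lower side, that of the proteoglycan gene Spock2, at 3.67, 37.4 and 1.76 CPM against 0.481, 0.173 and 0.407 CPM (-5.33, SE 1.33, adjusted p = 0.0892). Adamtsl1, an ADAMTS-like protein without protease domain, was at 20.6, 49.8 and 20.2 CPM against 2.45, 0.346 and 1.85 CPM (-4.29, SE 0.80, adjusted p = 0.0525), and 0 of the 5 tested genes of its list passed (2 with an unadjusted p under 0.05, 2 by DESeq2). Of the 11 tested cathepsins and cystatins, Ctsl had the widest difference, at 908, 651 and 758 CPM against 1912, 4634 and 1888 CPM (1.86, SE 0.40, adjusted p = 0.0653). In the list of tolloid proteases, which process procollagen at the carboxyl end, 0 of 5 passed (1 with an unadjusted p under 0.05, 1 by DESeq2), and Pcolce2 was at 18, 83.6 and 11.4 CPM against 21.5, 1.54 and 18.2 CPM (-1.45, SE 1.07, adjusted p = 0.466).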

How the data were processed

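RNA-seq had been run on 18 libraries, 3 cultures of each of 6 MPNST lines, 3 lines per genotype. The authors deposited the counts of reads per gene, 1 column per library, as raw whole numbers. The submitters' processing notes name CASAVA, STAR 2.5, DESeq2 1.14.1 and the build GRCm38 (mm10). The counting tool, its use of strand and the annotation are not given in the sources used here, so reads of genes that overlap on opposite strands may not be separated. Levels of similar genes depend on how reads with several matches were treated, which is likewise not given in those sources.

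Each line had come from 1 tumor, so its cultures were summed. The p-values measure the spread between lines. Genes were kept with filterByExpr (minimum count 10), scaled by TMM factors, and tested by quasi-likelihood (edgeR 4.0.16, limma 3.58.1, DESeq2 1.42.0, R 4.3.3), with Benjamini-Hochberg adjustment over 15207 genes. Summed levels were compared with exact permutation tests (scipy 1.17.1). Exon lengths, positions and overlaps were taken from GENCODE M21 (34490 of 35275 identifiers matched), and promoters from RefSeq. The steps were tested on simulated counts. Intervals cover counting error only.

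The members, the lists and the tests were chosen with earlier results of these data known. Values in every line are given for genes that passed, genes without overlap and an absolute log2 fold change of at least 1, the TIMPs, and the most abundant gene per kilobase of each class. From the lists of other proteolysis genes, genes that passed and the widest difference among genes with a mean of at least 1 CPM are given in full. The marker lists are given by their sums and by single genes, not by that rule. Other genes given with values, among them Mmp9, Mmp15, Mmp17, Mmp28 and Plg, were chosen after their values were seen. Alternatives were other replicates, tests, scalings, filters and blocks, and each line left out in turn.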

Additional observations from a re-analysis of the deposited data

Results flagged for a closer look

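In the 9 cultures of the Nf1/p53 dKO genotype, the third culture of line 2 stood apart for Mmp24, at 0.444 CPM, while the next highest culture was at 0.0799 CPM. The gap was 0.82 of the range of the 9 cultures. It was the 1 stray value among 68 groups of 9 cultures looked at. The limit used flags about 1 in 20 groups of independent values by chance, and cultures of 1 line are not independent. These levels rest on at most 10 counts per culture, and the 3 Nf1/Cdkn2a dKO lines lay above the summed line all the same.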

How the results depend on the processing

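Counts are given in the order all genes, matrix protease and inhibitor genes, other proteolysis genes, and were 274, 1 and 2. They were 6096, 20 and 28 with edgeR and 6409, 20 and 30 with DESeq2 on the 18 cultures, 5681, 20 and 27 with the culture number as a replicate block, 2173, 8 and 19 with limma-voom and the line as a random effect, and 2171, 12 and 16 with DESeq2 on the 6 lines, which left the adjusted p of Mmp9, Mmp15 and Mmp17 undefined. The line numbers did not pair the samples (correlations of same-numbered lines -0.117, -0.13 and -0.0832), and a replicate block on them left 0, 0 and 0 calls, with 12 members at an unadjusted p under 0.05. Raw total counts gave 423 calls and shifted the median log2 fold change of all genes by -0.134, and omitting the filter gave 2 member calls, Mmp10 and Mmp3. With 1 line left out, counts ran from 0 to 172, 0 to 2 and 0 to 1. Log2 fold changes that turned sign were, with their range when 1 line was left out, those of Timp1 (-0.66 to 0.02, positive without Nf1/p53 dKO line 2), Mmp17 (-2.03 to 0.25, same line), Adamts12 (-1.31 to 0.22, same line), Adamts5 (-0.51 to 1.42, with -0.17 without Nf1/p53 dKO line 3 and -0.51 without Nf1/Cdkn2a dKO line 3), Adamts8 (-0.83 to 0.97, positive without Nf1/p53 dKO line 2, 0.04 without Nf1/Cdkn2a dKO line 3), and, negative without Nf1/Cdkn2a dKO line 3, Mmp16 (-0.06 to 0.47), Mmp19 (-0.39 to 1.24) and Mmp11 (-0.15 to 0.35). Adamts8 was at 0.29 with limma-voom and Mmp11 at -0.03 with raw totals, and no cause was tested. Of the single-gene values under an alternative that had an adjusted p, 428 kept direction and side of the threshold, 77 passed it, 12 turned and 6, all of Mmp10, fell short of it.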
